A study of Mus musculus with 2 samples.

Results

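The 10 genes described here belong to the contractile cytoskeleton of smooth muscle cells and myofibroblasts and were measured in 2 RNA sequencing libraries of cultured gonadal fat cells from C57BL/6 mice. They were picked by name from the 24091 genes of the deposited table, and all 10 were present: the smooth muscle actins Acta2 and Actg2, the thin filament proteins Tagln, Cnn1, Cald1, Tpm1, and Tpm2, the smooth muscle myosin subunits Myh11 and Myl9, and the intermediate filament protein Des. In the radiation group, mice were pelvically irradiated, which the labels give as 7.5 Gy and 5 days without saying whether the dose was daily or in total. The control group was sham-irradiated, and both sample titles also name PBS, whose use the labels do not explain. Fat was taken 2 months after radiation, digested with collagenase, and the floating fraction, described by the labels as mature adipocytes, was cultured for 3 days. The sources used here do not give the number, sex, or age of the mice per library. Each condition has 1 library, so the values have no replicate check and no test between conditions was possible.

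Smooth muscle cells shorten when myosin pulls on filaments of actin, and tropomyosin, caldesmon, and calponin lie along those filaments and set how freely myosin can act. Fibroblasts that take on part of this program are called myofibroblasts. They assemble actin stress fibres containing alpha smooth muscle actin and commonly also lay down collagen, and they are best known from wound repair and fibrosis. Many genes of this program are switched on by serum response factor (SRF), which binds a short DNA element called the CArG box together with myocardin or the myocardin-related factors (MRTFs).

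Because several of these genes are textbook SRF targets, the promoters were read for CArG boxes. Sites outside the windows given below were not searched. RefSeq promoter sequence (GRCm38.p6, the assembly also called mm10) was matched by symbol for 7 of the 10 genes in 8 windows, each covering the 250 bases before the start site. Tagln, Actg2, and Myh11 had no entry. The CArG box was searched on both strands, as was a looser form with 1 G or C among the 6 middle bases. The strict box was found in 1 of the 8 windows, that of Myl9, and in 1.47% of all 32851 promoter windows. The looser form was found in 2 of the 8 windows, those of Acta2 and Myl9, and in 7.24% of all windows. Both promoters are shown 5′ to 3′ on the strand of the gene because they hold the only matches, which are in capitals. The Acta2 window is chr19:34255374-34255623 on the minus strand and the Myl9 window is chr2:156775214-156775463 on the plus strand.
Acta2: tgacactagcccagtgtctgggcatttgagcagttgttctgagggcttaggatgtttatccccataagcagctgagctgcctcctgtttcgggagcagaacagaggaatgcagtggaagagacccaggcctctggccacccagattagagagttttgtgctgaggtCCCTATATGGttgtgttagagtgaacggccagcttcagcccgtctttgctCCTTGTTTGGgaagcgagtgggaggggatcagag
Myl9: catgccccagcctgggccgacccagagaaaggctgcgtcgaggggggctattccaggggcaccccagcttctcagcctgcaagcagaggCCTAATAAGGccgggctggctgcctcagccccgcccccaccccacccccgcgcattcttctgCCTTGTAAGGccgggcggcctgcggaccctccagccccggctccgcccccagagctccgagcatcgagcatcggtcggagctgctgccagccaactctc

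In Acta2, both capital runs are of the looser form, and their first bases lie at -84 and -34 from the start site. In Myl9, the run at -161 is the strict box and the run at -99 is of the looser form. The MCAT element bound by TEAD factors, searched as CATTCC on both strands, was found in 3 of the 8 windows (Acta2, Cald1, and Tpm1) and in 12.6% of all windows. A match describes these letters only and does not show binding in these cells.

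Values are given as FPKM (fragments per kilobase of the deposited gene length and per 1000000 fragments in the library). That length was 2.563 kb for Acta2, which is shorter than the span of its coordinates. A difference is the deposited log2(FPKM + 0.1) of the irradiated library minus that of the sham-irradiated library. Depth, recovered from the spacing of the low values, was about 30600000 fragments without radiation and 35000000 with it. The interval beside a difference is an exact 95% Clopper-Pearson interval for the ratio of recovered fragments, widened for the 2-decimal rounding of the deposited values. It covers counting error only, and may be too narrow even for that, since PCR copies are not independent molecules. It leaves out the variation from mouse to mouse and culture to culture. The lowest FPKM of the 10 genes was 4.13, so none was near the floor set by depth.

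All 10 contractile genes were higher in the irradiated library, by 0.07 to 0.51 on the log2 scale with a median of 0.24. The tested genes, meaning the 11253 that reached an FPKM of 1 in either library, serve as background. Among them, 53.5% were higher and the median difference was 0.02. The counting interval lay above 0 for 8 of the 10 genes and below 0 for 0 of them, against 22.3% above and 15.9% below among the tested genes. The 10 genes were chosen with earlier results of these data known, so these shares are a description and not a test. The differences were small: 0 of the 10 genes differed by 1 or more in either direction, against 0.791% of tested genes higher and 0.373% lower by that amount. Of the 10, Tagln alone was higher by at least 0.5, as were 4.31% of tested genes, and 0 were lower by that amount, as were 1.44%. Centred on the median of the tested genes, Tagln differed by 0.49 and 0 of the 10 genes passed 0.5. Together the 10 genes took 0.613% (exact binomial 95% interval 0.610 to 0.616) of the fragments on genes without radiation and 0.719% (0.716 to 0.722) with it. These 2 intervals were not widened for rounding.

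**Figure D1:**
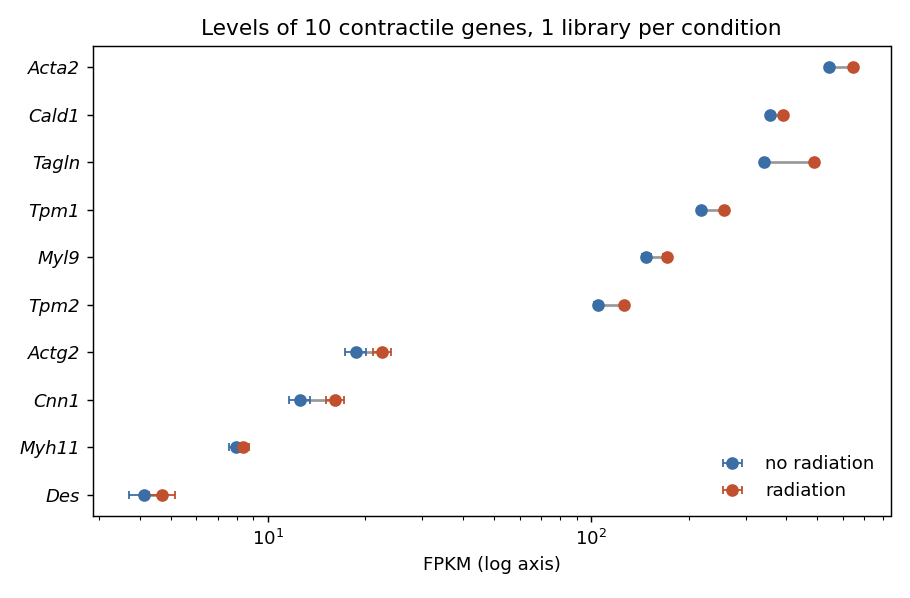
FPKM on a log axis for each of the 10 genes in the sham-irradiated (blue) and irradiated (orange) library, with bars for the exact 95% Poisson interval of the recovered fragments widened for rounding. Acta2 is highest and Des lowest in both, and in each row the orange point lies to the right of the blue one.

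The genes fell into 2 ranges of level. Acta2, Cald1, Tagln, Tpm1, Myl9, and Tpm2 were above an FPKM of 100 in both libraries, and Actg2, Cnn1, Myh11, and Des were below 25 in both. In the sham-irradiated library the order was Acta2, Cald1, Tagln, Tpm1, Myl9, Tpm2, Actg2, Cnn1, Myh11, and Des. In the irradiated library, Tagln stood above Cald1 and the order was otherwise unchanged. The 95% counting intervals of neighbours in either order did not overlap, although levels of different genes also depend on the gene length used by the authors.

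Among the actins, Acta2 encodes alpha smooth muscle actin, the protein most often used to recognise myofibroblasts. It lies on chromosome 19 from 34240336 to 34255373 (mm10) and had an FPKM of 545 without and 643 with radiation, on 42698 and 57708 fragments. The difference was 0.24 (interval 0.21 to 0.27), a 1.18-fold higher level. By FPKM it ranked 72 among all genes without radiation and 48 with it. Actg2, the enteric smooth muscle actin on chromosome 6 from 83512909 to 83536251, had 18.7 and 22.5 on 804 and 1111 fragments. Its difference of 0.27 (0.13 to 0.41) was close to that of Acta2, and its wider interval reflects fewer fragments.

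Of the thin filament genes, Tagln had the largest difference, with an interval that overlapped that of Cnn1 but not those of the other 3. Tagln encodes transgelin (SM22 alpha), an actin-bundling protein, and lies on chromosome 9 from 45929628 to 45936058. Its FPKM was 342 without and 488 with radiation, on 16552 and 26976 fragments, a difference of 0.51 (0.47 to 0.55) and a 1.42-fold higher level. Of the tested genes, 3.93% had a larger positive difference. Cnn1, calponin 1, lies on chromosome 9 from 22099253 to 22109221 and had 12.5 and 16.1 on 793 and 1167 fragments. Its difference was 0.36 (0.22 to 0.50), and 7.92% of tested genes exceeded it.

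The tropomyosins, which form coiled-coil cables along actin, were close to each other and to Acta2. Tpm1, on chromosome 9 from 67022593 to 67049213, reached 218 and 258, a difference of 0.24 (0.21 to 0.27). Tpm2, on chromosome 4 from 43513726 to 43523554, had 105 and 126, a difference of 0.27 (0.22 to 0.32). Cald1, caldesmon, is abundant in both smooth muscle and non-muscle cells through different splice forms, which a value per gene does not separate. It lies on chromosome 6 from 34598544 to 34775469 and had 357 and 391 on 58096 and 72754 fragments, a difference of 0.13 (0.10 to 0.16). The difference of Tagln exceeded that of Cald1 by 0.38 (interval from a normal approximation of counting error, 0.33 to 0.43), and of tested genes 25.3% had a larger difference than Cald1.

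**Figure D2:**
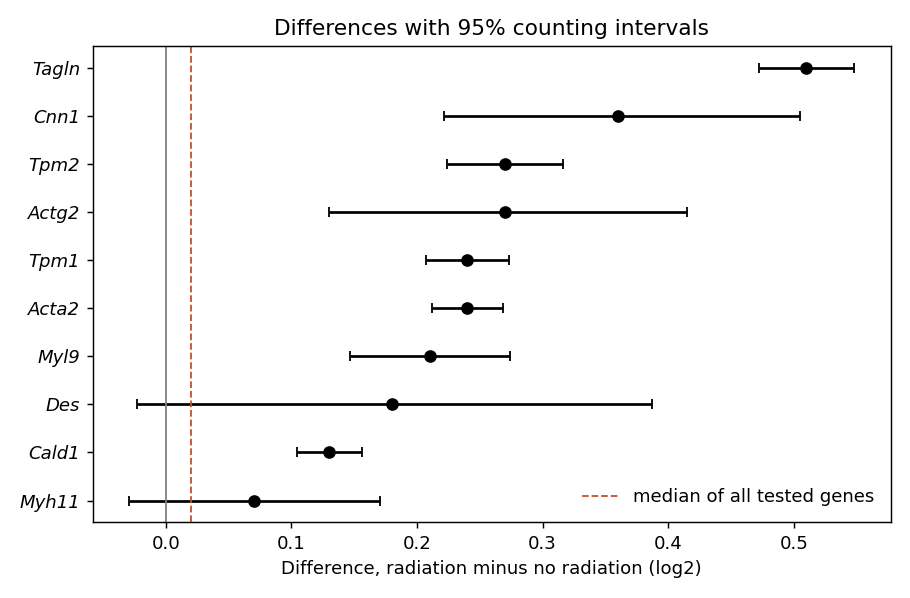
Difference of each gene (irradiated minus sham-irradiated, log2) with its 95% counting interval, ordered by size. The solid line marks 0 and the dashed line the median of the tested genes, 0.02, and the intervals of Myh11 and Des cross both.

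The motor subunits and desmin were among the lower differences. Myl9, the regulatory light chain whose phosphorylation starts contraction, lies on chromosome 2 from 156775464 to 156781657 and had an FPKM of 148 and 171, a difference of 0.21 (0.15 to 0.27). Myh11, the smooth muscle myosin heavy chain and one of the most specific markers of mature smooth muscle, lies on chromosome 16 from 14194527 to 14291408 and had 7.96 and 8.36 on 1849 and 2222 fragments. Its difference of 0.07 (-0.03 to 0.17) was not distinguishable from 0 at this depth. Des, the muscle intermediate filament desmin, lies on chromosome 1 from 75360292 to 75368579 and had 4.13 and 4.69 on 386 and 501 fragments. Its difference of 0.18 (-0.02 to 0.39) also had an interval that included 0.

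The 6 abundant genes were also set against genes of like level, which was not done for the 4 lower ones. There were 475 genes that reached an FPKM of 100 in both libraries. Of these, 38.1% were higher with radiation and their median difference was -0.03. Counting intervals lay above 0 for 27.2% of the 475 and below 0 for 41.3%, whereas those of all 6 abundant contractile genes lay above 0. Among the 475 genes, 12 were higher by at least 0.5, which is 2.53%, and Tagln was 1 of them.

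**Figure D3:**
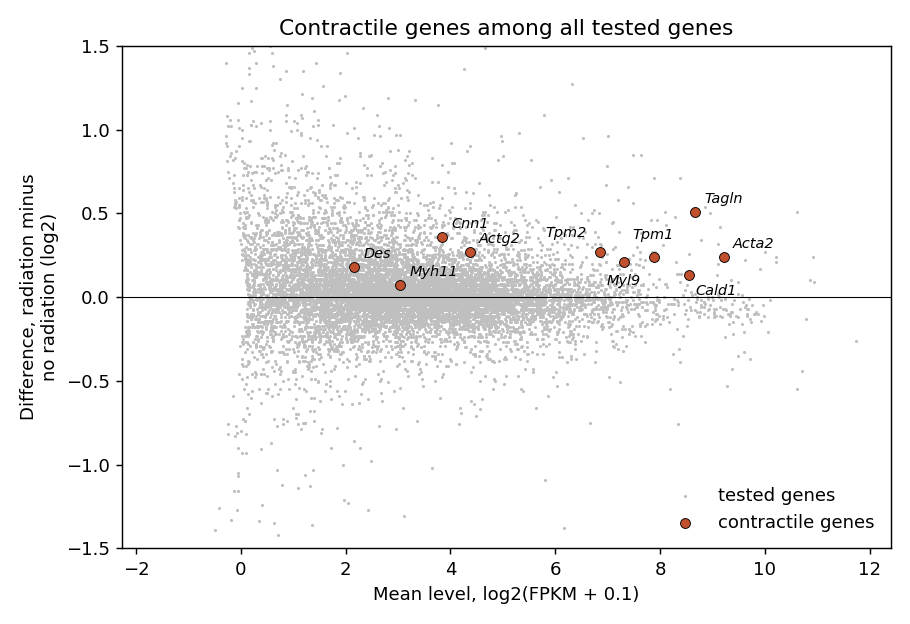
Difference (irradiated minus sham-irradiated, log2) against mean level for the 11253 tested genes (grey) and the 10 contractile genes (orange), with 40 genes beyond the axis limits of 1.5 not shown. Grey points narrow towards 0 at high level, and the 6 abundant contractile genes lie above 0, with Tagln highest and Cald1 lowest of them.

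The contractile genes other than Actg2 and Cald1 were also set beside chosen cytoskeletal relatives in the same libraries. Acta1 and Actc1, which had few fragments and larger differences than Acta2 (1.67 and 0.50), were not used as partners. The counts of pairs below therefore leave them out. Acta2 differed by 0.24, while the ubiquitous actins Actb (FPKM 1911 and 2034) and Actg1 (630.2 and 675) differed by 0.09 and 0.10. Tagln differed by 0.51 and its relative Tagln2 (324 and 345) by 0.09, and the ratio of the levels of Tagln to Tagln2 was 1.06 without radiation and 1.41 with it. Tpm1 and Tpm2 differed by 0.24 and 0.27, against 0.02 for Tpm4 (709 and 719) and 0.06 for Tpm3. In 14 such pairs, matched after the values were seen, the gene from the 10 had the larger difference in 12. A value per gene does not separate splice forms in any of these pairs. Several genes recur across the pairs, so the gaps are not independent, and no share among other gene pairs was computed. The interval of the gap, here and below from a normal approximation of counting error, lay above 0 in 10 pairs and below 0 in 0.

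In the other 4 pairs the gap was negative or within counting error. Cnn1 (0.36) and its relative Cnn2 (0.27) differed by amounts whose gap of 0.09 had an interval from -0.07 to 0.25, and Myl9 (0.21) and Myl12a (0.18) had a gap of 0.03 (-0.06 to 0.12). Des (0.18) was below the intermediate filament gene Vim (0.27), which had an FPKM of 929 and 1120.5. Myh11 (0.07) was likewise below the non-muscle heavy chain Myh9 (0.18), although both of these gaps had intervals that included 0. The largest difference of the whole paralogue list was that of the skeletal alpha actin Acta1, 1.67 (1.21 to 2.50), on only 27 and 110 fragments and an FPKM of 0.564 and 2.01. Of the 14 kept genes of that list, 12 were higher and the median difference was 0.09. The cardiac actin Actc1 had 8 and 15 fragments and an interval that included 0.

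Sequence shared with other genes was measured on annotated transcripts as exact matches, and its effect on the values was not tested. Of all 50-base segments of the Acta2 transcripts in GENCODE M21, 0.326% also occurred in transcripts of other genes, among them Actg1, and of those of Myh11, 0.34% occurred in Myh9 or Myh10. For each of the other 8 genes the share was 0%. In the deposited table, Tagln overlapped Pcsk7 on the other strand by 95 bases, and Pcsk7 had 851 and 1113 fragments. Acta2 lay within the span of the predicted gene Gm38437 on the same strand, which was listed at 0 in both libraries. The sources used here do not say how the authors assigned fragments of overlapping genes.

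The wider contractile apparatus was higher in part. Of 20 other smooth muscle contractile genes, 15 were among the tested genes (called kept below), of which 11 were higher, with a median of 0.24, the same as for the 10 genes. Counting intervals lay above 0 for 10 of the 15 and below 0 for 1. For this list and those below, the background is that of the tested genes. Of those, 53.5% were higher, with a median of 0.02, and intervals lay above 0 for 22.3% and below 0 for 15.9%. The highest difference was that of Jph2, which tethers the sarcoplasmic reticulum to the cell membrane, at 0.85 (0.70 to 1.03) from an FPKM of 4.07 to 7.42. The next were the LIM protein gene Fhl1 at 0.61 and the actin-binding Synpo2 at 0.49. Lmod1, leiomodin, which nucleates smooth muscle actin filaments, had 10.5 and 13.3, a difference of 0.34 (0.23 to 0.46), and Actn1, the actin cross-linker with the highest FPKM of this list, had 170.0 and 209, a difference of 0.30.

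Not every regulator of contraction followed. Mylk, the kinase that phosphorylates Myl9, had an FPKM of 18.03 and 16.5, a difference of -0.13 (-0.19 to -0.07), the only gene of these 15 with an interval below 0. Hspb6, a small heat shock protein of smooth muscle, had the lowest difference, -0.20 (-0.41 to 0.01). Ppp1r14a and Ppp1r12b, which inhibit and anchor the myosin phosphatase, differed by -0.10 and -0.06 with intervals that included 0. Pln, phospholamban, was listed at 0 fragments in both libraries, which allows up to 3 fragments in each (the one-sided 95% limit of a count of 0).

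Stress fibre and focal adhesion genes were shifted less. All 18 were kept and 15 were higher, with a median of 0.105, and intervals lay above 0 for 12 and below 0 for 1. Fhl2, a LIM domain cofactor, had the highest difference at 0.40 (0.28 to 0.52), followed by the adhesion protein gene Zyx at 0.36 (0.32 to 0.40) from an FPKM of 98.9 to 127. Flna, filamin A, had the highest FPKM, 354 and 372, and differed by 0.07. Csrp2 had the lowest difference, -0.09 (-0.20 to 0.02).

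The kept upstream factors ranged from -0.07 to 0.45 in the differences of their own transcripts. Of 12 genes of the SRF and MRTF pathway, 11 were kept and 9 were higher, with a median of 0.06, and intervals lay above 0 for 5 and below 0 for 0. Srf itself had an FPKM of 17.2 and 17.9, a difference of 0.06 (-0.03 to 0.15). The MRTF genes, listed under their older symbols Mkl1 and Mkl2, differed by 0.13 (0.04 to 0.23) and -0.01 (-0.11 to 0.09). Myocd, which encodes myocardin, the cofactor of differentiated smooth muscle, had 20 and 40 fragments and an FPKM of 0.1003 and 0.175. Its difference was 0.46, and the log2 ratio of its fragments per depth, without the added 0.1, was 0.81 (-0.003 to 1.66). Klf4, a repressor of the smooth muscle program, had the highest difference of the 11, 0.45 (0.35 to 0.56), from 15.2 to 20.9, and Elk1, an SRF partner, had the lowest, -0.07. Rhoa, the small GTPase that drives stress fibre assembly, had the highest FPKM, 189 and 194.

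Matrix and surface genes that myofibroblasts commonly express were not higher as a group. The surface proteins among the kept genes are those of Thy1, Cdh2 (0.24), Cdh11 (0.05), and Fap (-0.14). Of 14 kept genes, 6 were higher and 8 lower, with a median of -0.05, and intervals lay above 0 for 5 and below 0 for 6. The lowest difference was that of Postn, periostin, at -0.55 (-0.58 to -0.52) from an FPKM of 352 to 240.4. Col1a1, with the highest FPKM of the list at 1937 and 1428, differed by -0.44, and Col3a1 and the collagen cross-linking enzyme gene Lox by -0.33 and -0.24. On the other side, the fibronectin gene Fn1 had 515 and 592, a difference of 0.20 (0.18 to 0.22), and the surface glycoprotein gene Thy1 had the highest difference, 0.40 (0.21 to 0.60). In the same libraries, then, Acta2 and Tagln were higher and the collagen genes Col1a1, Col1a2, and Col3a1 were lower.

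**Figure D4:**
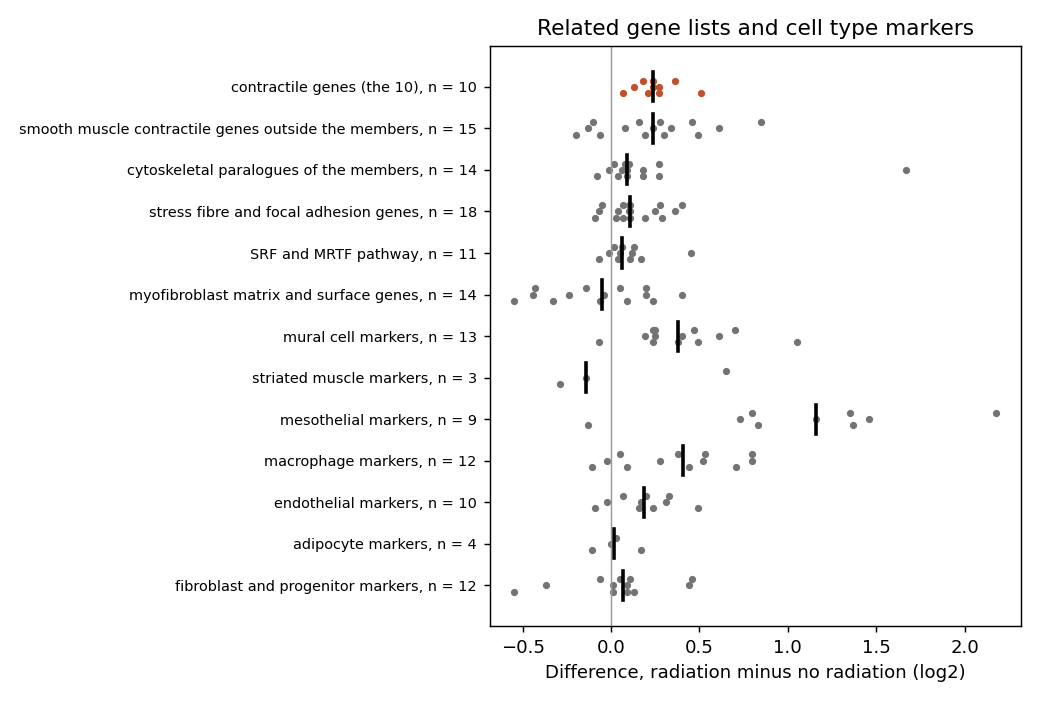
Difference (irradiated minus sham-irradiated, log2) of each kept gene in the 10 contractile genes (orange) and in 12 lists of related genes and cell type markers (grey), with the median of each list as a black bar. The contractile genes lie to the right of 0, the matrix and surface genes lie on both sides, and the mesothelial markers reach furthest to the right.

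Several cell types express the contractile genes, and the markers of those cells were therefore read as well. Mural cells are the pericytes and smooth muscle cells of vessel walls, and of their 14 markers 13 were kept and 12 were higher, with a median of 0.38, intervals above 0 for 10 and below 0 for 1, and a summed FPKM of 145 and 155. Rgs5 had 10.6 and 12.6, a difference of 0.25, and the guanylate cyclase subunit gene Gucy1a3 had the highest difference, 1.05 (0.87 to 1.40). The most abundant of them, Pdgfrb, which fibroblasts also express, had 93.6 and 89.2, a difference of -0.07. In bulk RNA, more cells of a type and more RNA per cell cannot be told apart. The part of these cells in the contractile differences was not tested.

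Markers of striated muscle were almost absent. Of 18, 9 were at 0 in both libraries, among them the muscle creatine kinase gene Ckm and the myogenic factor genes Myod1 and Myog, and the summed FPKM was 3.37 and 3.44. Of the 3 kept, Tnnt2 had the highest difference at 0.65, on 26 and 49 fragments, Mylpf the lowest at -0.29, and the median was -0.14. Actn3 had the highest FPKM, 1.42 and 1.28.

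Mesothelial cells line the surface of gonadal fat and can themselves take on myofibroblast features. Of 10 markers 9 were listed and kept, 8 were higher, and the median difference was 1.16, on a summed FPKM of 32.4 and 44.3. Msln was highest at 2.18, from 0.52 to 2.71, while Wt1, the most abundant, had 20.4 and 18.7, a difference of -0.13. The intervals lay above 0 for 8 of the 9 and below 0 for 1. Their part in the contractile differences was not tested.

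Of the remaining cell types, macrophage markers had a median of 0.41, with 10 of 12 higher, intervals above 0 for 9 and below 0 for 1, and a summed FPKM of 615 and 657. Their differences ran from -0.11 for Lyz2, the most abundant at 442 and 410.0, to 0.80 for C1qa and C1qc. Endothelial markers had a median of 0.185, with 8 of 10 higher, intervals above 0 for 5 and below 0 for 0, and a summed FPKM of 56.4 and 63.7. They ran from -0.09 for Cldn5 to 0.49 for Esam, and the most abundant, Cdh5, differed by -0.02. Fibroblast and progenitor markers had a median of 0.07, with 9 of 12 higher, intervals above 0 for 6 and below 0 for 3, and a summed FPKM of 1361 and 1395. They ran from -0.55 for Pi16 to 0.46 for Gsn, and Dcn, the most abundant, had 549 and 552 (0.01). The 6 epithelial markers were below an FPKM of 1 in both libraries. The part of these cells in the contractile differences was not tested.

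The labelled cell type was hardly visible in its own markers. Of 12 adipocyte markers, 8 were below an FPKM of 1 in both libraries. Among these, Adipoq had 5 and 10 fragments and an interval that included 0. Plin1 had an FPKM of 0.254 and 0.478 on 26 and 56 fragments, a difference of 0.71 (0.22 to 1.64). Fabp4, the most abundant and not exclusive to adipocytes, had 96.9 in both libraries. Of the 4 kept, Pnpla2 had the highest difference at 0.17, Car3 the lowest at -0.11, and the median was 0.015, and the intervals of all 4 included 0. By FPKM, Acta2 at 545 and 643 was thus above every gene of the adipocyte list.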

How the data were processed

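Polyadenylated RNA of 1 library per condition was sequenced after a stranded library preparation, per the labels. The authors deposited log2(FPKM + 0.1) values, rounded to 2 decimals, beside the coordinates and length of each gene, and the submitters' processing notes name the build mm10. The sources used here name no aligner, counting tool, or strand setting. Samples were grouped by their treatment label, and both columns carry the sample titles.

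FPKM was recovered by subtracting 0.1 from 2 raised to the deposited value. Depth was the total at which FPKM times length gave whole fragments. Within a tolerance of 0.12, 100% of 2445 and 2400 low genes were whole. Recovered fragments of abundant genes are approximate.

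With 1 library per condition, no p-value was computed. Counts and medians of lists are set beside those of all genes that reached an FPKM of 1 in either library. The members and lists were chosen with earlier results of these data known. The genes named were all 10 members, the highest and lowest difference and the highest FPKM of each list, and Actb, Actg1, Acta1, Actc1, Srf, Myocd, Adipoq, and Plin1, and others were named after their values were seen. Alternatives were another or no pseudocount, another or no filter, 2 other scalings, removal of the trend with gene length, and means in place of medians. The scripts ran under Python 3.11.15 with SciPy 1.17.1, pandas 2.3.3, numpy 2.4.6, and, for the figures, matplotlib 3.10.9.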

Additional observations from a re-analysis of the deposited data

How the results depend on the processing

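No paired analysis was possible because there was 1 library per condition, which also left no replicate to leave out. Each of the 10 contractile genes remained higher in the irradiated library under every alternative in which it was kept. Their median lay between 0.22, centred on the median of the tested genes or with the length trend removed, and 0.248, as a mean. The count of 8 intervals above 0 did not change with centring, scaling without the 100 genes of highest FPKM, or an FPKM of at least 5, which left 9 genes. The difference of Tagln was at the edge of the threshold of 0.5, and 0 of the 10 genes passed it with centring, with that scaling, or with the length trend removed. The share of fragments on the 10 genes was 0.729% and 0.846% when the total left out the 99 other genes among those 100 and kept Acta2, since the total is then smaller. The mesothelial median was 0.70 with log2(FPKM + 1), and the adipocyte median was 0.20 without a filter, over 12 genes. Among the tested genes, 89 were higher and 42 lower by at least 1, which became 29 and 17 with log2(FPKM + 1), 267 and 148 without a filter, and 23 and 10 with an FPKM of at least 5. For a threshold of 0.5, 485 and 162 became 263 and 95, 1324 and 681, and 186 and 56. Centring left 2192 genes with an interval above 0 and 2145 below, against 2504 and 1784. Depth limits Actg2, Cnn1, Myh11, and Des, whose intervals were the widest of the 10.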
